A study of Mus musculus with 12 samples.

Results

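The genes described here are those that encode translation initiation and elongation factors, the proteins that start and extend protein synthesis on the ribosome. They were taken as every protein-coding gene of the RefSeq annotation of GRCm38 whose symbol begins with Eif or Eef followed by a digit, which gave 71 of 21900 protein-coding genes. A gene was counted as carrying a peak when the summit of a called peak lay inside its span, and 27 of the 71 genes (38%) had at least 1 such peak, against 26.2% of all protein-coding genes. Their peaks numbered 95 of the 23413 in the 6 deposited lists and fell into 56 of 13572 merged regions.

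The study pulled down RNA fragments with an antibody against m1A, adenosine methylated at its N1 position, from the caudate putamen (dorsal striatum) of adult male mice homozygous for a loxP-flanked Tet1 gene (Tet1 fl/fl). Control mice received AAV-EGFP and knockout (KO) mice AAV-Cre-EGFP in the caudate putamen, which gives the genotype labelled Tet1 delta/delta, and tissue was taken 2 weeks later. Both groups thus carried the floxed alleles and a virus that expresses EGFP. The promoter that drives Cre and the share of cells infected are not given in the sources used here. Each genotype had 3 pull-down and 3 input libraries, and each pull-down was called with its matching input as the background.

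In eukaryotic initiation, eIF2 brings the initiator tRNA to the small ribosomal subunit, eIF3 holds that subunit in the scanning complex, and eIF4F recruits it to the capped messenger RNA. eIF2B reloads eIF2 with GTP, and kinases that phosphorylate eIF2 block this step in the integrated stress response. In elongation, eEF1A delivers aminoacyl-tRNA and eEF2 moves the ribosome by a codon, while the calcium-dependent kinase eEF2K inhibits eEF2. In neurons these factors are best known for control of local protein synthesis at synapses. m1A blocks Watson-Crick pairing and is best known in tRNA and rRNA; in messenger RNA it has been reported near the 5′ end, at an abundance that is debated.

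The caller used 459332 to 1097292 pull-down tags in the controls and 1235247 to 2508102 in the KO libraries, so that every KO library was deeper. Control 1 stood apart: it was the shallowest library, it was called with every duplicate tag kept, and its median pileup at a summit was 4 tags against 17 to 19 in the other 5 lists. KO 2 was the deepest and had 6947 peaks, where the others had 3004 to 3782. Of 14 markers of medium spiny neurons, the main cells of the tissue, 12 were called somewhere, with 4 to 10 per library, and Drd1 and Tac1 nowhere. For other cell types, 4 of 5 oligodendrocyte, 3 of 6 astrocyte, 3 of 4 cortical neuron, 2 of 5 microglial and 1 of 3 choroid plexus markers had a peak, and Aqp4, Mog, Neurod6, Csf1r and Kl were among those with none. Tet1 had a peak in 0 of 6 lists, which gives no check of the deletion. In tissue RNA, fewer cells of a type and less RNA per cell cannot be told apart, and absence from a list means that no peak was called with those tags, not that the RNA lacks m1A.

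The number of translation factor genes with a peak overlapped between the genotypes. It was 4, 13 and 12 in controls 1, 2 and 3 and 9, 16 and 13 in KO 1, 2 and 3. Control 1 was lowest and KO 2 highest, and the other 4 libraries lay between 9 and 13 with the genotypes overlapping. The KO mean was 12.7 ± 3.51 (SD, n = 3) and the control mean 9.67 ± 4.93, a difference of 3 genes with an exact two-sided permutation p of 0.6. Of all genes called in a library, the members made up 0.163%, 0.507% and 0.523% in the controls and 0.331%, 0.432% and 0.564% in KO. The means of these shares were 0.442 ± 0.117% (SD, n = 3) for KO and 0.398 ± 0.203% for control, with an exact permutation p of 0.8. The difference in share turned from 0.0446 to -0.0726 percentage points without control 1 and to -0.0164 without KO 3. The smallest p that 3 libraries against 3 allow is 0.1. These numbers are 5.63%, 18.3% and 16.9% of the 71 genes in the controls and 12.7%, 22.5% and 18.3% in KO. Over all protein-coding genes the shares were 9.89%, 10.5% and 9.38%, and 11.1%, 14.8% and 9.41%. Control 1 alone had a lower share of the members than of all protein-coding genes.

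**Figure D1:**
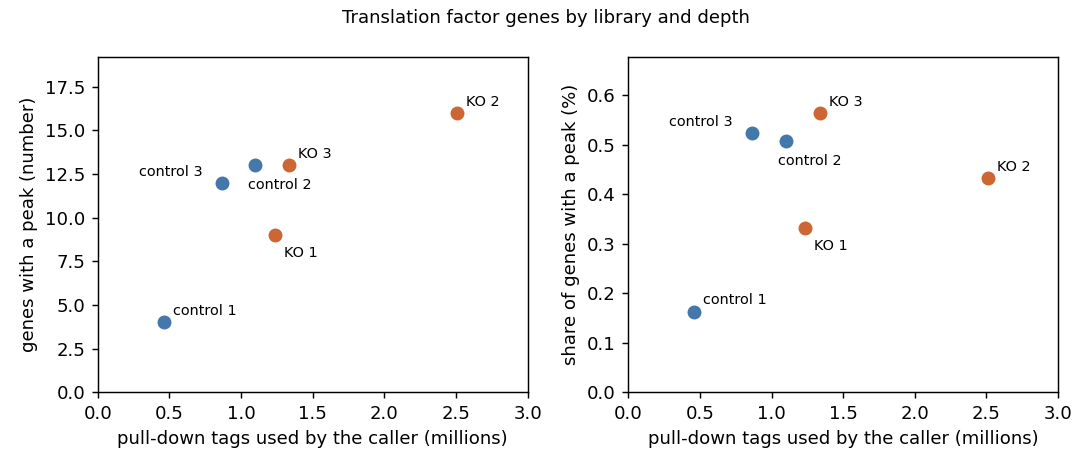
Number of translation factor genes with a peak (left) and their share of all genes with a peak in percent (right) against the pull-down tags used by the caller (in units of 1000000 tags), 1 point per library (blue control, orange KO). Control 1 has the fewest tags and 4 genes, and KO 2 has the most tags and 16 genes.

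Counted as peaks, the members held 6, 18 and 14 in controls 1, 2 and 3 and 11, 31 and 15 in KO 1, 2 and 3. KO 2 was highest through genes with several summits, and the other KO libraries lay within the range of the controls. The means were 19.0 ± 10.6 (SD, n = 3) for KO and 12.7 ± 6.11 for control, with an exact permutation p of 0.5. The members' share of all peaks averaged 0.409 ± 0.105% (SD, n = 3) for the KO libraries and 0.392 ± 0.179% for the controls, with an exact permutation p of 0.9. That difference in share, 0.0168 percentage points, became -0.0851 without control 1, -0.00171 without KO 2 and -0.0239 without KO 3. Adjusted by Benjamini-Hochberg over these 4 values, every p was 0.9. The median fold enrichment of member peaks, which is the caller's ratio of coverage to local background and belongs to each list, was 5.98, 6.86 and 7.29 in the controls and 6.61, 6.57 and 7 in KO. The medians of all peaks in those lists were 4.65, 7.16 and 7.18, and 7.16, 7.23 and 7.53.

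**Figure D2:**
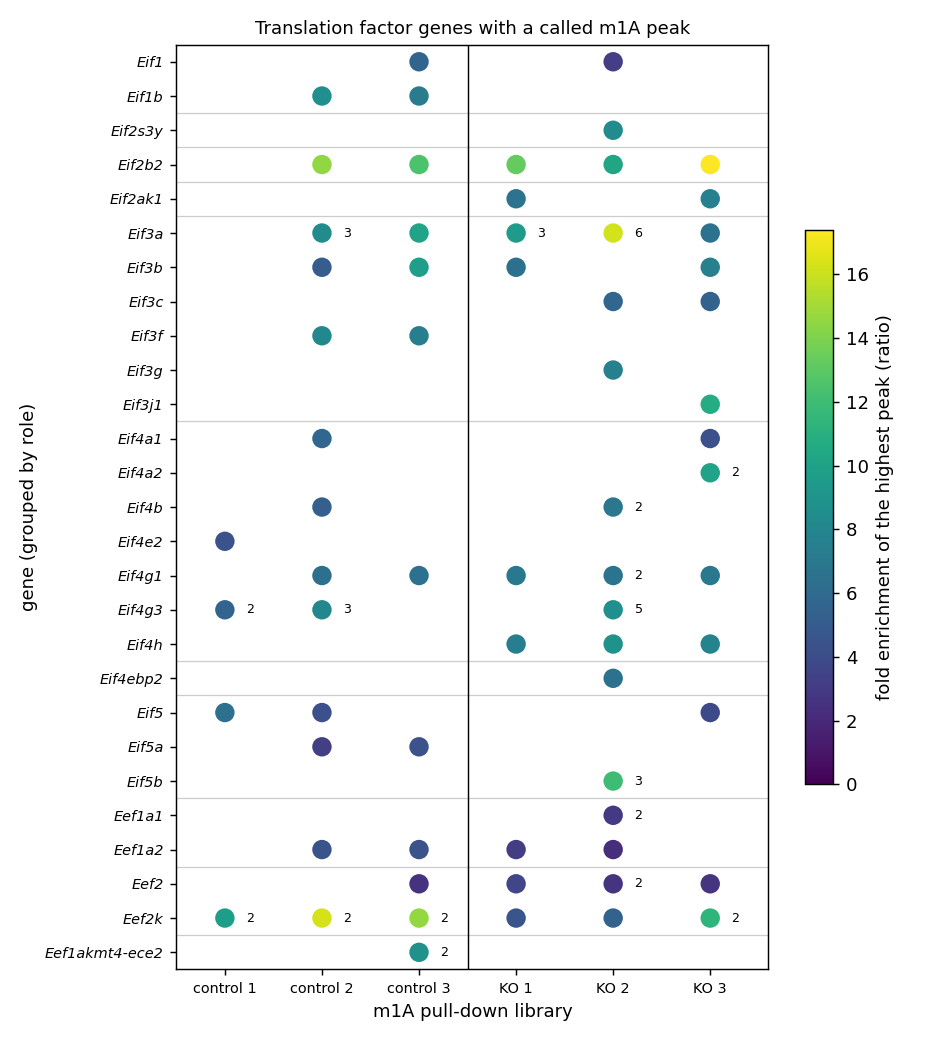
Each dot marks a translation factor gene (rows, grouped by role) with a called peak in a pull-down library (columns, controls left of the line and KO right). Colour gives the fold enrichment of its highest peak as a ratio, and a small number gives the peaks where there is more than 1. Only Eef2k has a dot in all 6 columns, and Eif2b2, Eif3a and Eif4g1 lack one in control 1 alone.

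Of the 27 genes with a peak, 12 had one in both genotypes, 10 in KO only and 5 in control only. Among all 5746 protein-coding genes with a peak the corresponding shares were 45.9%, 32.4% and 21.6%, against 44.4%, 37.0% and 18.5% of the members. The split of the members lay within 5 percentage points of that background. Only Eef2k had a peak in all 6 libraries, 1 of 27 where 8.77% of protein-coding genes did. Eif2b2, Eif3a and Eif4g1 had one in every library but control 1, so that 4 genes were called throughout without that library. These 4 made up 14.8% of the members with a peak, against 17.0% of protein-coding genes. Another 9 genes had a peak in a single library (33.3%, against 42.5%), and 0 had one in all 3 controls and no KO library (against 0.818%). Without KO 2 the genes called in KO alone numbered 5 and those called in control alone 8. The shares over all protein-coding genes were not recomputed without KO 2, the longest list, so this shift cannot be called particular to the members.

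By merged region, which asks for the same site and not only the same gene, agreement between libraries was lower. Of the 56 regions, 1 was called in all 6 libraries (1.79%, against 3.07% of 11837 regions in protein-coding genes) and 4 in 5 or 6 (7.14%, against 6.90%), in Eef2k, Eif2b2, Eif3a and Eif4g1. A single library called 37 of them (66.1%, against 68.6%). Called in KO only were 31 (55.4%, against 50.4%), in control only 15 (26.8%, against 28.1%) and in both 10 (17.9%, against 21.5%).

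The 14 genes of eIF3, the largest initiation complex, and the 13 of eIF4F and its helpers held most of the peaks, 24 and 27 of 95, with 6 and 7 genes called. A single gene held many of them in each group, Eif3a with 14 of the 24 and Eif4g3 with 10 of the 27. Over all protein-coding genes 26.2% had a peak, and the groups by role are too small to be ranked against that share. Of the other initiation genes, 2 of 5 Eif1-prefixed genes, 1 of 4 eIF2 subunits and 1 of 5 eIF2B subunits had a peak. So did 1 of 4 eIF2 kinases, 1 of 4 regulators of eIF4E and 3 of 5 genes of eIF5, eIF5A, eIF5B and eIF6. Of the elongation genes, 2 of 6 in the eEF1 group and 2 of 3 in the eEF2 group did. The 5 methyltransferases that modify eEF1A had none, nor did Eif2a and Eif2d, alternative factors for bringing tRNA to the small subunit. The 44 genes without a peak had a median span of 15.0 kb and the 27 with one 19.5 kb, where protein-coding genes with a peak had a median of 40.7 kb.

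Some summits lay close to the transcription start. A start was listed in the RefSeq table for 55 of the 71 genes and for all 27 with a peak, and 25 of the 95 peaks (26.3%) had their summit within 500 bp of one. They lay at 147 to 475 bp downstream with a median of 230 bp. Since a summit had to lie inside the gene span, one upstream of these starts could not be counted. The 25 peaks belonged to 12 genes: Eef1a2, Eif1, Eif1b, Eif2b2, Eif3b, Eif3c, Eif3f, Eif3j1, Eif4a1, Eif4a2, Eif4h and Eif5. The window was chosen after the values were seen. Windows of 250 and 1000 bp held 14.7% and 30.5% of member peaks, against 18.9% and 33.1% of peaks in protein-coding genes. At 500 bp the members' share was 37.9% without control 1 and KO 2. Over all protein-coding genes the shares in controls 2 and 3 and KO 1 and 3 were 40.4%, 42.5%, 32.4% and 39.3%. The nearest summit outside the 500 bp window lay at 548 bp, in Eif4b. Of the 55 genes, 12 (21.8%) had such a summit, against 11.3% of the 17492 protein-coding genes with a listed start, while by peaks the share was 26.3% against 28.0%. Among these 12 genes, 0 had the near-start peak in all 6 libraries (against 5.76% of 1979 protein-coding genes with one), 1, Eif2b2, in 5 (12.7% in 5 or 6) and 5 in a single library (46.2%). It was called in KO only for 4 genes (against 29.9%), in control only for 5 (29.6%) and in both for 3 (40.5%). None had it in all 3 libraries of a genotype and none of the other (1.01% for KO and 1.62% for control), Eif4h had it in at least 2 KO libraries and no control (5.46%), and Eef1a2, Eif1b and Eif3f in at least 2 controls and no KO library (7.78%).

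The start regions of 5 of these genes are shown, chosen after their values were seen, because their near-start site recurred in at least 2 libraries of a genotype at a fold enrichment of at least 5 in each. The sites of Eef1a2 (4.45 and 4.40) and Eif5 (6.40 and 4.24 in controls) recurred without meeting that limit in each library. They are RefSeq promoter windows on GRCm38.p6, from 250 bases before to 50 bases after the start, 5′ to 3′ on the gene's strand, with the transcribed bases in capitals. Their positions are chr12:85219231-85219530 (plus strand) for Eif2b2, chr5:140419055-140419354 (plus) for Eif3b, chr7:108934165-108934464 (plus) for Eif3f, chr9:120492356-120492655 (plus) for Eif1b and chr5:134639360-134639659 (minus) for Eif4h.
Eif2b2: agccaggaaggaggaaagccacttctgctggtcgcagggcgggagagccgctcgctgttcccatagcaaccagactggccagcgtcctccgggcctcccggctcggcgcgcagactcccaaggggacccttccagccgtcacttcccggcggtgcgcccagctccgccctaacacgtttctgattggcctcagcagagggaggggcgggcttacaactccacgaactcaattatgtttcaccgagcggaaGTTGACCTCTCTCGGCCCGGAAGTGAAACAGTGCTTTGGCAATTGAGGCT
Eif3b: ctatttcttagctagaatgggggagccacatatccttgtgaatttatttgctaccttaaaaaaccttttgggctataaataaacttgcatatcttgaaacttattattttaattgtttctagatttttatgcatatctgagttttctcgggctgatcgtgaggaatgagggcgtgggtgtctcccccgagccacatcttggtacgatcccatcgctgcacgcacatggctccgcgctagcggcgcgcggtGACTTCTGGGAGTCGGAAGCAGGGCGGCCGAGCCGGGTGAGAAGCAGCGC
Eif3f: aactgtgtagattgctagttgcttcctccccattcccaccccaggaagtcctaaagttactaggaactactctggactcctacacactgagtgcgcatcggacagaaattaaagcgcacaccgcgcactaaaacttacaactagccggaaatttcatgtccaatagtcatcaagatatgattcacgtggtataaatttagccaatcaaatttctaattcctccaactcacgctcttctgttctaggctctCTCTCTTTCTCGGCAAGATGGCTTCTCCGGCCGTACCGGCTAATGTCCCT
Eif1b: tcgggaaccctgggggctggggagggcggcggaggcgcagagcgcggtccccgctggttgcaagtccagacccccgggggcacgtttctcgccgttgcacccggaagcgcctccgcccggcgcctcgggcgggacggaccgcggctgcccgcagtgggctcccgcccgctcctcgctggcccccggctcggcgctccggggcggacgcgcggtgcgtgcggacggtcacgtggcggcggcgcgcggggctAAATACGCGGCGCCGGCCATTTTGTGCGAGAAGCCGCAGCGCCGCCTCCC
Eif4h: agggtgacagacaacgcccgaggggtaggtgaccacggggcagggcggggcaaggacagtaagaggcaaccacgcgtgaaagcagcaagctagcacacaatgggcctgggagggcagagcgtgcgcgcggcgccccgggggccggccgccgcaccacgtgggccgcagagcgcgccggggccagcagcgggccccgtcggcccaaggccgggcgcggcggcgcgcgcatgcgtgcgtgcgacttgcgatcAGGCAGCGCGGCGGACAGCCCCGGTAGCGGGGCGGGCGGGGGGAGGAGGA

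Most near-start peaks began downstream of such windows, and 4 of the 25 near-start peaks reached into one, 3 in Eif3b and 1 in Eif1b. Over the 300 bases, G and C made up 62.7% in Eif2b2, 49% in Eif3b, 46% in Eif3f, 78.3% in Eif1b and 76% in Eif4h. The median was 61.8% over the 70 listed starts of translation factor genes and 56.3% over the 21263 starts of protein-coding genes. Eif1b and Eif4h were thus well above both medians and Eif3f and Eif3b below them. In the transcribed 50 bases the medians were 66% and 60%.

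Eif3f began at its listed start with a C followed by 4 bases that are each C or T, the form of the 5′ terminal oligopyrimidine motif of mRNAs whose translation mTORC1 controls. Searched on the transcribed strand, that form stood exactly at the start in 2.86% of translation factor starts and 2.21% of protein-coding starts, and within 5 bases of it in 24.3% and 18.6%, including Eif2b2, Eif3b and Eif3f. TATAAA, searched on both strands, was found in Eif3b and Eif3f, and in 7.14% of translation factor starts and 12.6% of protein-coding starts. GTTCNA, the core of the sequence in which the tRNA m1A methyltransferase modifies adenosine, was found on either strand in Eif3f and in 32.9% and 28.6% of starts. In the 5 windows shown, 0 matches overlapped a match to another of the motifs. A match describes these letters and no site of action.

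The share of near-start summits differed by library and did so in a similar order for all genes. It was 1 of 6, 7 of 18 and 6 of 14 member peaks in controls 1, 2 and 3, or 16.7%, 38.9% and 42.9%, and 2 of 11, 2 of 31 and 7 of 15 in KO 1, 2 and 3, or 18.2%, 6.45% and 46.7%. For summits in all protein-coding genes the shares were 17.6%, 40.4% and 42.5%, and 32.4%, 12.0% and 39.3%. Control 1 and KO 2 were low on both measures, and KO 1 was low for the members.

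**Figure D3:**
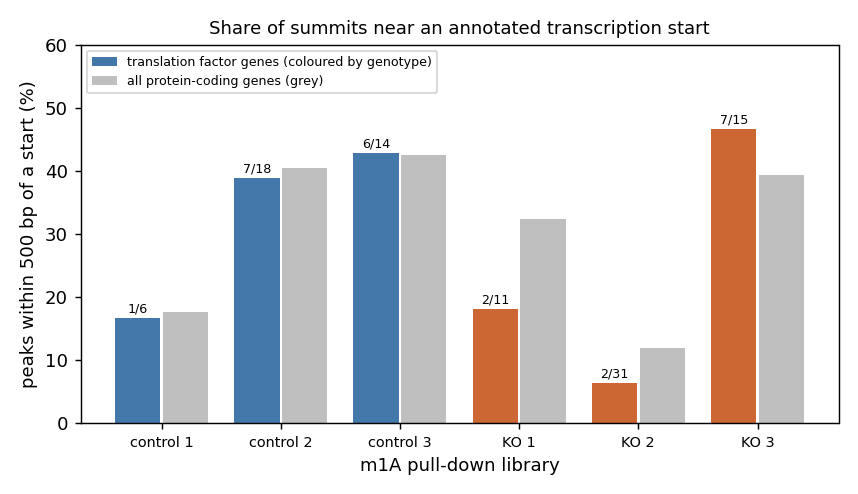
Share of peaks, in percent, whose summit lies within 500 bp of an annotated start, for translation factor genes (coloured bars, blue control and orange KO, with the peaks counted above) and for all protein-coding genes (grey bars), by pull-down library. KO 2 is lowest for both, at 6.45% and 12.0%.

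Among the factors that select the start codon, Eif1 encodes eIF1 and Eif1b a close relative. Eif1b (chromosome 9, 120492641 to 120492936) had a near-start peak in controls 2 and 3, with fold enrichments of 8.58 and 7.23 and summits 189 and 174 bp from the start, and none in control 1 or any KO library. Eif1 had a near-start peak in control 3 (5.58, at 230 bp) and a peak at 896 bp in KO 2 (3.14). These sites in Eif1 did not overlap. Eif1a, Eif1ad and Eif1ax, grouped here by symbol alone, had no peak.

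Eif2b2, which encodes the beta subunit of the eIF2 exchange factor, carried a near-start site with closely spaced summits. Its region on chromosome 12 from 85219536 to 85219832 was called in every library but control 1, with fold enrichments of 14.5 and 12.5 in controls 2 and 3 and 13.2, 10.2 and 17.4 in KO 1, 2 and 3. Each value belongs to its own list. The 5 summits lay within 196 to 208 bp of the start, downstream of the first of the sequences shown. These peaks ranked in the top 3.70% to 18.7% of their lists by fold. The other eIF2B subunits, Eif2b1, Eif2b3, Eif2b4 and Eif2b5, had no peak.

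Of the eIF2 subunits, Eif2s3y, the Y-linked gamma subunit, had 1 peak, in KO 2 (8.34), and Eif2s1, Eif2s2 and Eif2s3x had none. Eif2ak1, the haem-regulated eIF2 kinase, was called in KO 1 and KO 3 and in no control, with fold enrichments of 6.61 and 7.51. That region, on chromosome 5 from 143891634 to 143891902, also lies in the span of Ankrd61, so the gene that carries it is uncertain. The kinases Eif2ak2, Eif2ak3 and Eif2ak4 had no peak. Called in at least 2 KO libraries and no control were 3 of the 27 genes, Eif2ak1, Eif3c and Eif4h, against 7.67% of protein-coding genes with a peak. The opposite pattern held for 3, Eif1b, Eif3f and Eif5a, against 3.88%. With counts of 3 neither share (11.1%) says more than that such genes occurred in both directions.

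Within eIF3, Eif3a, the largest subunit of the core, had summits spread over 6 regions in the 3′ part of its span, 21973 to 27538 bp from the start of the 29.6 kb gene. The widest region, on chromosome 19 from 60766202 to 60767121, was called in every library but control 1, with highest fold enrichments of 7.85 and 10.1 in controls 2 and 3 and 9.52, 15.7 and 6.55 in KO 1, 2 and 3. Control 2, KO 1 and KO 2 also had other regions of the gene, while control 3 and KO 3 had this one alone. A region further upstream in the gene (60768577 to 60768938) was called in control 2 (7.29), KO 1 (6.01) and KO 2 (11.9). The region between them (60767461 to 60767758) was called in control 2 (8.4) and KO 2 (16.2). KO 2 alone added 3 regions nearer the 3′ end, at 4.11 to 10.6.

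Eif3b, whose product is a scaffold of the eIF3 core, had a near-start region on chromosome 5 from 140419351 to 140419749. It was called in controls 2 and 3 (5.03 and 9.69) and KO 1 and 3 (6.35 and 7.54). Its summits lay at 354, 353 and 334 bp, and at 173 bp in KO 3. Eif3f, a regulatory subunit, had a near-start region on chromosome 7 from 108934487 to 108934753 in controls 2 and 3 only, with fold enrichments of 8.14 and 7.36 and pileups of 51 and 30 tags. Eif3c, another core subunit, was called in KO 2 (5.77, at 7577 bp) and KO 3 (5.49, at 166 bp), at sites that did not overlap. Eif3g had a peak in KO 2 (7.50) and Eif3j1 in KO 3 (10.7). The 8 others, Eif3d, Eif3e, Eif3h, Eif3i, Eif3j2, Eif3k, Eif3l and Eif3m, had none.

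In eIF4F, the scaffold gene Eif4g1 had a region 13571 to 13747 bp into its 20.2 kb span, on chromosome 16 from 20686197 to 20686582. It was called in every library but control 1, with fold enrichments of 6.33 and 6.39 in controls 2 and 3 and 7.02, 6.66 and 7 in KO 1, 2 and 3. They belong to 5 separate callings, so their order is no measure of change. KO 2 had a further peak from 20691170 to 20691357 (5.34). Eif4g3, the related scaffold and the longest gene of the family (215 kb), had 10 peaks in controls 1 and 2 and KO 2, in 9 regions of which 1 was shared, on chromosome 4 from 138126353 to 138126555 in control 2 (6.44) and KO 2 (4.64). The others had fold enrichments of 5.55 and 5.46 in control 1, 8.15 and 5.65 in control 2, and 4.44 to 8.59 in KO 2. Eif4g2 had no peak.

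The helper Eif4h, which stimulates the helicase eIF4A, was the only member with a peak in all 3 KO libraries and no control, 1 of 27 against 1.74% of protein-coding genes with a peak. Its peaks were not at 1 site. KO 2 and KO 3 had the near-start region on chromosome 5 from 134639016 to 134639242 (8.78 and 7.75), and KO 1 a peak 11664 bp into the gene (7.36). That count became 0 with lists of equal length. It was 2 without control 3 (with Eef2), without KO 1 (with Eif3c) or without KO 2 (with Eif2ak1). Its partner Eif4b had separate sites in control 2 (5.20) and KO 2 (6.88 and 4.26). The helicase genes Eif4a1 and Eif4a2 had their sites in the 5′ part of the gene, Eif4a1 with summits at 317 bp in control 2 (5.72) and 567 bp in KO 3 (4.22), and Eif4a2 at 475 and 1284 bp in KO 3 alone (10.1 and 5.03).

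The cap-binding gene Eif4e had no peak, nor had Eif4e1b, Eif4e3, Eif4a3 or Eif4a3l1, and its relative Eif4e2 had 1 in control 1 on 4 tags (4.36). Of the eIF4E regulators, Eif4ebp2, which restrains cap-dependent translation in brain, had a peak in KO 2 (6.57). Eif4ebp1, Eif4ebp3 and Eif4enif1 had none.

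Eif5, the GTPase activator of eIF2, had a near-start region on chromosome 12 from 111538358 to 111538568 in controls 1 and 2 (6.40 and 4.24) and KO 3 (3.87). Eif5a, which helps the ribosome through difficult peptide bonds, was called in controls 2 and 3 alone (3.24 and 4.40), at a site on chromosome 11 from 69916791 to 69917104 that also lies in the overlapping gene Gps2. Eif5b, which joins the ribosomal subunits, had 3 peaks, all in KO 2 (5.6 to 12). Eif5a2 and Eif6 had none. In all, 21 of the 31 member regions called in KO 2 were its own (67.7%, against 64.0% of its regions in protein-coding genes), while KO 1 and KO 3 had 1 and 5 of their own (10% and 33.3%, against 27.8% and 20.1%). Controls 1, 2 and 3 had 3, 3 and 4 (50%, 16.7% and 28.6%, against 67.4%, 18.9% and 17.2%).

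Eef2k, the kinase that inhibits elongation through eEF2, had 1 region called in all 6 libraries and another called in the controls only. Its span lies on chromosome 7 from 120842642 to 120907219, and 2 regions near its 3′ end recurred. The first, from 120899286 to 120899674, was called in all 6 libraries with fold enrichments of 9.60, 10.3 and 9.38 in controls 1, 2 and 3 and 4.51, 5.40 and 11.3 in KO 1, 2 and 3. By fold these peaks stood in the top 9.67%, 19% and 24.4% of the control lists and in the top 91.1%, 80.6% and 15.6% of the KO lists, each rank within its own list. The −log10 q there was 2.68 in KO 1 and 4.13 in KO 2, and at a limit of 5 both calls were lost.

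The other Eef2k region, from 120903157 to 120903525, was called in all 3 controls and no KO library. Its fold enrichments were 6.59, 16.3 and 14.6 and its −log10 q 7.82, 26.8 and 22.8 in controls 1, 2 and 3, which put it in the top 23.9%, 4.75% and 6.01% of those lists by fold. It was the only 1 of 56 member regions with that pattern, against 0.684% of 11837 regions in protein-coding genes. The control values of this Eef2k region all lay above a −log10 q of 5 and a fold of 4. Such limits, or leaving out a library, cannot add a KO call, so the pattern had to hold under them. Lists of equal length, which could only have removed a control call, also kept it. Without control 1, 5 member regions were called in the remaining controls and no KO library, with those of Eef1a2, Eif1b, Eif3f and Eif5a added. That count was not made over all protein-coding genes. Every KO library had more pull-down tags than any control, and why no KO library called the Eef2k site was not tested. Its position relative to exons was not analysed here. KO 3 had a further peak 52645 bp from the start of the span (6.52).

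Eef2 itself showed the opposite pattern at 1 region. The region on chromosome 10 from 81180241 to 81180560 was called in KO 1, 2 and 3, with fold enrichments of 3.61, 1.97 and 2.67, and in no control. It was the only 1 of the 56 regions with that pattern, against 1.23% of regions in protein-coding genes. The pileups were 55, 72 and 52 tags, well above the list medians of 17 to 19, while by fold they stood at 96.2%, 99.9% and 99.2% of the way down their lists. Requiring a −log10 q of 5, a fold of 4 or lists of equal length each removed the pattern. Leaving out KO 1, KO 2 or KO 3 gave 2 such regions, with Eif4h, Eif2ak1 or Eef1a2 added in that order. Control 3 had a peak elsewhere in Eef2 (2.54) and KO 2 a second one (2.69).

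**Figure D4:**
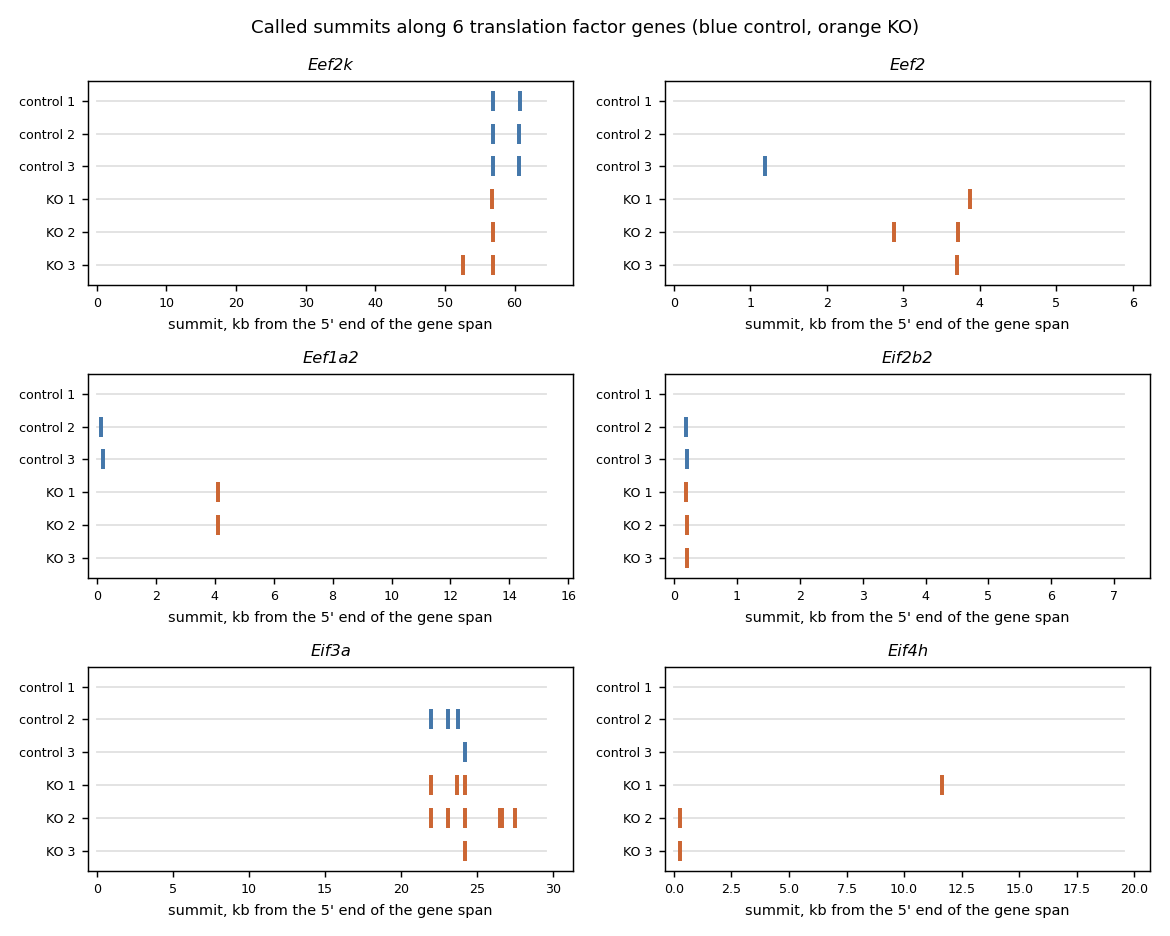
Called summits (ticks, blue control and orange KO) along 6 translation factor genes, in kb from the 5′ end of each gene span, by library. In Eef2k both sites are present in the controls and the one nearer the 3′ end is absent from the KO lists, while Eif2b2 has its tick at the start in every library but control 1.

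Eef1a2, the form of eEF1A found in neurons and muscle, was called at different places in 2 controls and 2 KO libraries. Controls 2 and 3 had a near-start region on chromosome 2 from 181156624 to 181156939 (4.45 and 4.40), and KO 1 and KO 2 a region from 181152828 to 181153031 (3.10 and 2.31) some 4117 to 4125 bp into the gene. Control 1 and KO 3 had neither. By fold the Eef1a2 peaks stood 89.3% and 91.1% of the way down the lists of controls 2 and 3. In KO 1 and KO 2 they stood at 98.4% and 99.7%, on pileups of 68 and 89 tags against 24 and 19 in those controls. Of the member regions, 5 were called in at least 2 controls and no KO library, against 3.63% of regions in protein-coding genes, and 4 the other way, against 6.29%. Eef1a1, the general form, had 2 peaks in KO 2 (1.90 and 2.93) on pileups of 75 and 80 tags. It has many near-identical pseudogenes and shares sequence with Eef1a2, so which copy gave these reads is uncertain. Eef1b2, Eef1d and Eef1g, which encode subunits of the complex that recharges eEF1A, and Eef1e1 had no peak, nor had Eef2kmt. The readthrough gene Eef1akmt4-ece2 had 2 peaks in control 3, both also in the spans of other genes, Camk2n2 (8.72) and Ece2 (4.58), and Eef1akmt4 itself had none.

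Of 39 related genes outside the Eif and Eef symbols, 12 had a peak (30.8%, against 26.2% of protein-coding genes). By library these were 3, 5 and 5 in controls 1, 2 and 3 and 6, 7 and 6 in KO 1, 2 and 3. Over all protein-coding genes the shares called were 9.89%, 10.5% and 9.38%, and 11.1%, 14.8% and 9.41%. Every KO library was deeper, and the difference in these small counts was not tested. Gspt1, the GTPase of translation termination, had a peak in all 6 libraries (8.20 to 30.1). Pabpc1, the cytoplasmic poly(A)-binding protein, was called in 5 (3.43 to 12.2), as was Cyfip2, a partner of FMRP (3.44 to 16.1). Ddx3x, an initiation helicase, was called in 2 KO libraries and no control (4.43 to 9.11). The kinase genes Rps6kb1 (6.57) and Rps6kb2 (5.28) were each called in 1 KO library and no control. Etf1, a gene of translation termination, was called in 1 control and no KO library (5.59). Paip2 (4.21 to 5.89), Pdcd4 (7.36 to 15) and Fmr1 (3.72 to 10.2) were called in both genotypes, as were Gspt1, Pabpc1 and Cyfip2. None of the 9 mitochondrial translation factors and neither of the selenocysteine genes had a peak. Of 5 genes of the stress response, Ddit3 (5.02) and Ppp1r15b (9.36) had a peak, both in KO 1 alone, and Atf4, Ppp1r15a and Nck1 had none.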

How the data were processed

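The labels' protocols state that total RNA was fragmented, incubated with an m1A antibody with a part kept as input, depleted of rRNA and made into libraries with random hexamers. Tools listed in the submitters' processing notes are cutadapt 2.8, HISAT2 2.1.0 and MACS2 2.2.6, with the build GRCm38. Each list holds the peaks of 1 pull-down over its matching input under a q-value limit of 0.01, per the file headers, with all duplicates kept in control 1 and at most 1 tag per position elsewhere. The deposited lists give each peak's pileup, a signal (coverage at the summit), its −log10 p-value and q-value, its fold enrichment (a ratio) and its length. These are the authors' values and served to rank, filter and characterise peaks inside 1 list; where libraries are set side by side, the values describe separate callings and measure no change.

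Summits were placed in RefSeq GRCm38.p6 spans, which hold introns, so exons were not told apart. The 2 summits in more than 3 genes were left out. Regions were merged where peaks shared at least 1 bp. Libraries were compared by exact two-sided permutation over 20 assignments (scipy 1.17.1, Python 3.11.15), and placement and merging were tested on simulated data. Every member with a peak in 5 or 6 libraries, or in at least 2 of one genotype and none of the other, is given with each library's value, other members by value or range. The members and lists were chosen with earlier results of these data known. The region counts by genotype and the 500 bp window were added after seeing the values. The labels do not say that the numbered libraries came from separate animals, so p-values measure only the spread between libraries, which may be technical. Same-numbered libraries did not deviate together (correlations of 0.01, 0.03 and 0.04 over 4207 regions), so numbers were not taken as pairs. The read counts behind presence calls are not in peak lists, so no counting interval is given.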

Additional observations from a re-analysis of the deposited data

How the results depend on the processing

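No p passed 0.05 under any setting, and none could with 3 libraries a group. The KO minus control difference in translation factor genes (3) turned to -0.667 with lists of equal length (3004 peaks each), -1.5 without control 1 and KO 2 and -3.68 per 1000000 tags used. The difference in their peaks (6.33) turned to -0.667, -3 and -4.39 under the same settings. The share of genes (0.0446 percentage points) turned to -0.0432 at a fold of at least 4, -0.00846 with equal lengths and -0.0675 without control 1 and KO 2. The share of peaks (0.0168) turned to -0.0347 at a −log10 q of at least 5, -0.0746 at a fold of at least 4, -0.0222 with equal lengths and -0.104 without control 1 and KO 2. Leaving out 1 library gave 0.167 to 4.83 genes, 0.333 to 10.3 peaks, -0.0726 to 0.107 and -0.0851 to 0.0819 percentage points; among these the share of genes reversed without control 1 (-0.0726) and KO 3 (-0.0164), and the share of peaks without control 1 (-0.0851), KO 2 (-0.00171) and KO 3 (-0.0239). The cause was not tested.

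With the replicate number as a block (exact sign-flip permutation test), the differences stayed 3, 0.0446, 6.33 and 0.0168 and the exact p was 0.25 for the numbers and 0.75 for the shares, where 3 pairs allow no p under 0.25; the block changed no call.

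The single gene and the single region called in all 6 libraries became 0 when a −log10 q of 5 was required and with equal lengths, and 5 without control 1 and KO 2. Leaving out 1 library gave 1 to 4 of each. Genes called in KO alone (10) were 5 without control 1 and KO 2, and 5 to 12 without 1 library. Genes called in control alone (5) were 8 at a fold of at least 4 and 3 with summits in 1 gene alone, and 4 to 8 without 1 library. Genes in all KO libraries and no control (1) were 2 at a −log10 q of at least 5, 0 with equal lengths and 2 without control 1 and KO 2, and 1 to 2 without 1 library. Genes in all controls and no KO library (0) were 3 without control 1 and KO 2, and 0 to 3 without 1 library. Regions in all KO libraries and no control (1) were 0 at either threshold and with equal lengths, 2 without control 1 and KO 2, and 1 to 2 without 1 library. Regions in all controls and no KO library (1) were 5 without control 1 and KO 2, and 1 to 5 without 1 library. The share of member peaks near a start (26.3%) was 14.7% with a window of 250 bp, 37.9% without control 1 and KO 2, and 22.5% to 35.9% without 1 library. With libraries left out or peaks filtered, neither this share nor the counts above were recomputed over all protein-coding genes. Such changes can therefore not be called particular to the members. Of 178 recomputed values of 14 results, 130 kept their direction or size class. A difference had to keep its sign, and a count had to stay within a fixed ratio of its main value. The near-start share had to move by less than its SD between libraries, 16.6 percentage points. Those limits are wide, so the 130 are no measure of stability. The region counts by genotype were tried under these settings after seeing the data. The depth of control 1 limits what absence from its list can show.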
